A study of Mus musculus with 10 samples.

Results

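Nectins and nectin-like molecules are cell adhesion proteins of the immunoglobulin superfamily, and 10 of the 55385 gene identifiers in the files belong to the set described here. The set holds the 4 nectins Nectin1, Nectin2, Nectin3 and Nectin4, the 5 nectin-like genes Pvr, Cadm1, Cadm2, Cadm3 and Cadm4, and Afdn, which encodes afadin, the adaptor of the nectins. Members were taken by gene symbol. The family itself was chosen with the difference between WT31 and WT31_P5IV in these libraries known, so the members' values and calls are given as a description, with no p-value. RNA was sequenced from cultured mouse melanoma cells in 10 libraries. WT31 is a melanoma line derived from Tyr::NrasQ61K/°; INK4a-/- mice, in which mutant Nras is driven by the tyrosinase promoter of pigment cells and INK4a is deleted. WT31_P5IV, labelled WT31_Passage_5, is a single subline of WT31 obtained by 5 cycles of injection into the tail vein and recovery of melanoma cells from the liver, and it derives from the same mouse genotype. There were 5 libraries of each, all from untreated cells at 50% confluence, and nothing in the sources describes separate sublines. The p-values given for other genes therefore measure only the spread between these libraries, and the comparison shows how the family's RNA differs between the parental line and that subline.

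Nectins span the membrane and bind nectins on the next cell, with partners of another kind usually bound more strongly than their own kind. Their cytoplasmic tail ends in a short motif that binds the PDZ domain of afadin, which links them to actin filaments at adherens junctions. The nectin-like proteins have a similar outer part but do not bind afadin. The Cadm proteins bind instead band 4.1 proteins and membrane-associated guanylate kinases at their tail. Nectin-2 and the product of Pvr, known as CD155, are also the ligands that lymphocytes read through the activating receptor CD226 and the inhibitory receptor TIGIT, and Cadm1 is the ligand of CRTAM.

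The tails differ among the members, and the end of each coding sequence is shown because afadin binds nectins, and guanylate kinases bind Cadm proteins, at the end of the tail. The last 30 coding bases before the stop codon are given 5′ to 3′ from GENCODE M21 on GRCm38, with the last 12 in capitals.
Nectin1 (chr9:43803984-43804013, plus strand): tctttcatttccaagaaaGAGTGGTATGTG
Nectin3 (chr16:46448391-46448420, minus strand): tccgtaatttccaggaggGAGTGGTATGTC
Nectin2 (chr7:19717518-19717547, minus strand): gacttttttgtgtcacggGCCATGTATGTG
Nectin4 (chr1:171386773-171386802, plus strand): atctacatcaacgggcgaGGGCACCTGGTC
Pvr (chr7:19905130-19905159, minus strand): agactgaacatggagccaAACAGCACAAGG
Cadm1 (chr9:47850358-47850387, plus strand): aactccgaagaaaagaaaGAGTACTTCATC
Cadm4 (chr7:24503589-24503618, plus strand): ggacacaaacggaaagaaGAATTCTTCATT
Nectin1 and Nectin3 share 11 of the last 12 bases in the same place, Nectin1 and Nectin2 share 8, and Nectin2 and Nectin3 share 7. Nectin4 shares 4, 3 and 5 with Nectin1, Nectin2 and Nectin3. Cadm1 and Cadm4 share 9 of 12, and Cadm1 shares 6 with Nectin1 and 7 with Nectin3, so these letters alone do not separate nectins from nectin-like genes. The end of Pvr shares 3 with Nectin1, 3 with Nectin2 and 2 with Nectin3.

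Libraries held 24255389 to 25750639 estimated counts, and 13620 genes passed the filter on low counts. Expression is given as CPM, the counts scaled to library sizes that the TMM method adjusted, and as the deposited TPM where genes are compared with each other. The 7 melanocyte markers summed to 17030 to 18420 CPM in WT31 and 22200 to 25700 CPM in WT31_P5IV, and 3 of them rose and 2 fell. Markers of other cell types were low in every library. The 6 leukocyte markers summed to 0.832 to 2.21 CPM in WT31 and 3.54 to 5.08 CPM in WT31_P5IV, where Cd68 rose (edgeR adjusted p = 1.16e-05), while Ptprc, Adgre1, Itgam and Cd3e had at most 3 counts in each library. The 6 stellate cell or fibroblast markers summed to 1.96 to 2.62 CPM and 3.11 to 3.61 CPM, where Acta2 and Col1a1 rose. Of the others, Pdgfrb was at a log2 fold change of −0.18 (edgeR adjusted p = 0.618), and Lrat, Des and Dcn, not tested, had lower means in WT31_P5IV and at most 8 counts in each library. The 6 matched hepatocyte markers summed to 0.302 to 0.587 CPM in WT31 and 0.402 to 1.3 CPM in WT31_P5IV. Alb and Apoa1, not tested, had 0 counts in WT31 and at most 9 and 4 in a WT31_P5IV library. Ttr was at a log2 fold change of 0.26 (edgeR adjusted p = 0.438), Cyp2e1 had a lower mean in WT31_P5IV, and Serpina1c and Fgb had 0 counts throughout. The 7 endothelial markers summed to at most 0.492 CPM, and the 6 epithelial markers to at most 0.492 CPM. The part of such cells in the members' values was not tested.

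Of the 10 members, 7 were tested with edgeR and 5 passed its threshold, an adjusted p under 0.05, a share to be set beside 68.5% of all tested genes. Nectin2, Pvr, Cadm1 and Cadm4 were higher in WT31_P5IV, a direction in which 34.6% of all genes passed, and Nectin1 was lower, where 33.9% did. The CPM of the groups did not overlap for these 5 members, as for 54.1% of all tested genes. Only Nectin1 also had a log2 fold change of at least 1 in size, which 9.1% of all tested genes had, 5.42% as higher and 3.69% as lower genes. The family was selected on this contrast, so nothing is read from these counts. The median log2 fold change of the 7 tested members was 0.28, beside 0.01 over all tested genes. Nectin4, Cadm2 and Cadm3 were not tested because their counts were too low, and Nectin1 passed the filter only through WT31.

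**Figure D1:**
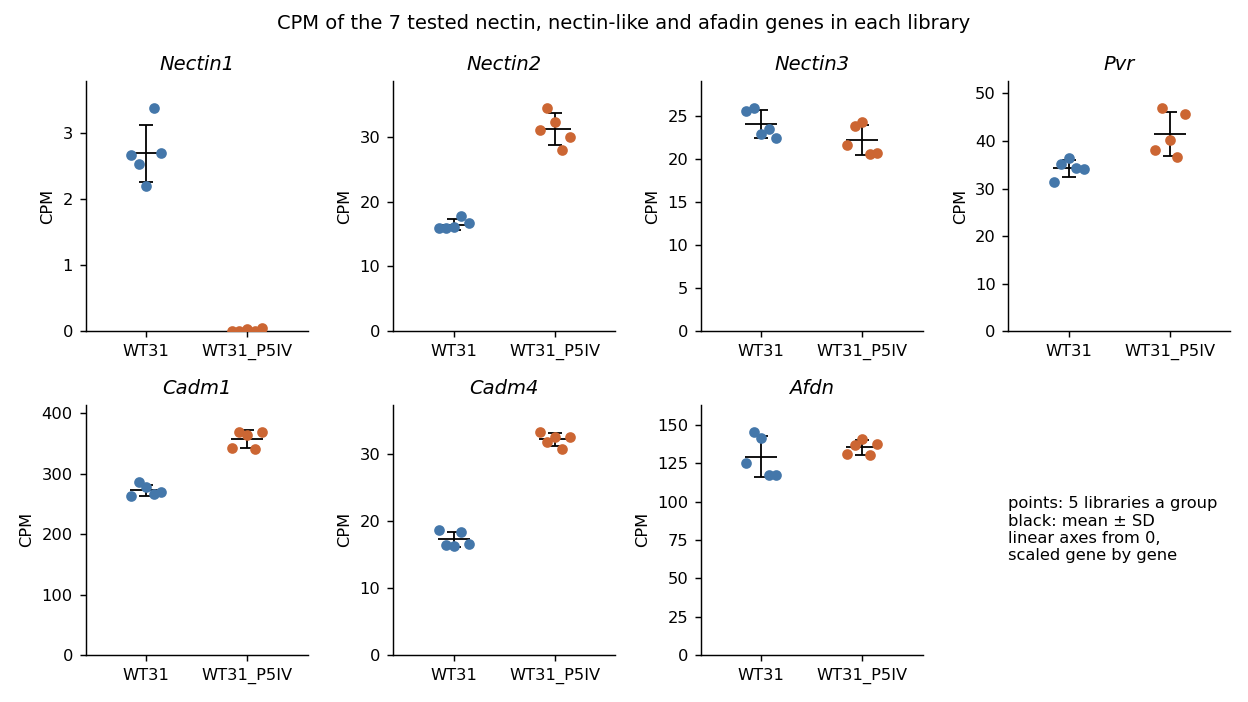
CPM of the 7 tested members in each library, with a linear axis from 0 for each gene; points are libraries, 5 a group, and black marks are the mean ± SD. Nectin1 lies at 2.19 to 3.38 CPM in WT31 and at most 0.0413 CPM in WT31_P5IV, Nectin2 and Cadm4 are higher in all 5 WT31_P5IV libraries than in any WT31 library, and Nectin3 and Afdn overlap between the groups.

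Nectin1, also known as an entry receptor for herpes simplex virus, was nearly absent from WT31_P5IV. The gene lies on chromosome 9 of GRCm38 from 43743984 to 43807461 on the plus strand. In WT31 its estimated counts were 68, 67, 56, 86 and 68 in replicates 1 to 5, and in WT31_P5IV they were 0, 0, 1, 0 and 1. Each WT31 library thus held at least 56 counts of Nectin1 and no WT31_P5IV library more than 1. In CPM this was 2.69 ± 0.431 (SD, n = 5) in WT31 against 0.0163 ± 0.0223 (SD, n = 5) in WT31_P5IV, where 3 counts in a library correspond to 0.12 to 0.129 CPM. The summed counts, 345 against 2, give a level 161-fold higher in WT31 per scaled library, with an exact 95% interval of 44.4 to 1338 that covers counting error only. The fitted log2 fold change was −6.96 (SE 0.38), a value that depends on the prior count. In these bulk samples, fewer cells with Nectin1 RNA and less of it per cell cannot be told apart. The gene was not abundant in WT31 either, where its 0.74 TPM was above only 9.87% of the tested genes.

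Nectin2, whose product binds nectin-3 across cell contacts and CD226 on lymphocytes, was higher in WT31_P5IV. It lies on chromosome 7 from 19716644 to 19750483 on the minus strand. WT31 replicates 1 to 5 held 15.9, 15.9, 16.1, 17.7 and 16.7 CPM, and WT31_P5IV replicates 1 to 5 held 31.1, 34.5, 32.3, 27.9 and 30 CPM. The lowest WT31_P5IV library was above the highest WT31 library by more than the whole range of WT31. The log2 fold change was 0.92 (SE 0.06), a 1.89-fold higher level.

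Nectin3, which binds nectin-1, nectin-2 and the Pvr product in trans, overlapped between the groups. It lies on chromosome 16 from 46387706 to 46498525 on the minus strand. Its CPM ran from 22.4 to 25.9 with a median library of 23.4 in WT31, and its WT31_P5IV libraries held 21.6, 23.7, 24.2, 20.5 and 20.7 CPM. The log2 fold change was −0.12 (SE 0.06) and Nectin3 did not pass the threshold. It passed it when WT31 replicate 5 or WT31_P5IV replicate 3 was left out, at −0.16 in each case, and in 4 other alternatives at −0.17 to −0.23. Nectin4, a nectin of skin and hair that serves measles virus as a receptor, had 0 to 3 counts in WT31 libraries and 0 to 1 in WT31_P5IV libraries. Nectin4 was not detectable at this depth beyond those counts.

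Pvr, whose product binds nectin-3 on other cells and the lymphocyte receptors CD226, TIGIT and CD96, is a neighbour of Nectin2 on chromosome 7, from 19903578 to 19921160 on the minus strand. It held 31.5, 35.2, 36.4, 34.2 and 34 CPM in WT31 replicates 1 to 5 and 38, 47, 40.2, 36.7 and 45.6 CPM in WT31_P5IV replicates 1 to 5. The groups met closely, since the highest WT31 library at 36.4 CPM was just under the lowest WT31_P5IV library at 36.7 CPM. The log2 fold change was 0.28 (SE 0.07). On the TPM scale Pvr overlapped between the groups, with 20.5 to 24.6 TPM in WT31 and 23.1 to 27.3 TPM in WT31_P5IV, and its log2 fold change on log2(TPM + 1) was 0.15.

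Cadm1, an adhesion molecule first described as a tumour suppressor of lung cancer and as a synaptic protein, was the most abundant member. It lies on chromosome 9 from 47530173 to 47857637 on the plus strand. WT31 replicates 1 to 5 held 263.7, 286.1, 278.1, 267.1 and 270.4 CPM, and WT31_P5IV replicates 1 to 5 held 342.6, 370.1, 364.4, 340.6 and 369 CPM. All WT31_P5IV libraries were above all WT31 libraries, with a log2 fold change of 0.39 (SE 0.04). In TPM the groups overlapped, at 107.2 to 124 TPM in WT31 and 116.5 to 135.8 TPM in WT31_P5IV, and the log2 fold change was 0.20 on log2(TPM + 0.1) and on log2(TPM + 1).

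Cadm4, known from the contact of Schwann cells with axons, moved about as far as Nectin2. It lies on chromosome 7 from 24482023 to 24504539 on the plus strand. It held 18.6, 16.5, 16.3, 18.4 and 16.6 CPM in WT31 replicates 1 to 5 and 33.4, 31.8, 32.5, 30.8 and 32.6 CPM in WT31_P5IV replicates 1 to 5. The groups were far apart, with a log2 fold change of 0.90 (SE 0.05), a 1.86-fold higher level. The neural family members Cadm2 and Cadm3 had at most 3 counts and at most 1 count in each library, and both were at or under the floor of 3 counts in all 10 libraries.

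Afdn lies on chromosome 17 from 13760539 to 13906150 on the plus strand. Its libraries ran from 117.2 to 145.8 CPM with a median of 125 CPM in WT31, and held 130.9, 137.1, 141.1, 130.3 and 137.9 CPM in WT31_P5IV. The WT31_P5IV libraries all lay within the range of WT31. The log2 fold change was 0.07 (SE 0.06), and values from −0.005 to 0.10 were obtained under the alternatives, so no direction is given for Afdn. Of the words of 31 bases in its transcripts, 5.66% also occur in transcripts of 6 other genes, Tcte2 next to it among them. For Nectin1, Nectin3, Pvr, Cadm1 and Cadm4 this share was at most 0.344%, and for Nectin2 it was 3.15%, shared with Gm20512.

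TPM corrects for transcript length and allows the members to be ranked within a group. In WT31 the order was Cadm1 at 111.8 ± 7.28 TPM, Afdn at 43.5 ± 3.78, Pvr at 22.5 ± 1.63, Nectin3 at 13.5 ± 1.22, Cadm4 at 13.2 ± 0.673, Nectin2 at 12.4 ± 0.611 and Nectin1 at 0.74 ± 0.099 (SD, n = 5). Nectin3 and Cadm4 overlapped in this order, as did Cadm4 and Nectin2, whereas the other steps down to Nectin1 exceeded the spread of the libraries. In WT31_P5IV the order was Cadm1 at 128.2 ± 8.18 TPM, Afdn at 45.8 ± 2.92, Pvr at 25.1 ± 1.84, Cadm4 at 22.2 ± 1.23, Nectin2 at 20.6 ± 1.64 and Nectin3 at 11.5 ± 0.93 (SD, n = 5). Pvr and Cadm4 overlapped there, although Pvr was above Cadm4 within each of the 5 libraries. Cadm4 and Nectin2 also overlapped, while Nectin3 stood below all 3.

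The make-up of the nectins differed more than their sum. Summed over the 4 nectins, WT31 libraries held 26.6 ± 1.19 TPM and WT31_P5IV libraries 32.1 ± 2.56 TPM (SD, n = 5), without overlap. Nectin2 made up 46.5% ± 2.61 of this sum in WT31 and 64.2% ± 0.711 in WT31_P5IV, and Nectin3 made up 50.6% ± 2.85 and 35.7% ± 0.573 (SD, n = 5). Nectin2 and Nectin3 were thus about level in the parental line, whereas Nectin2 was the larger of both in every library of the subline. The ratio of Nectin2 to Nectin3 TPM was 0.812, 0.816, 0.975, 1.03 and 0.974 in WT31 replicates 1 to 5 and 1.84, 1.85, 1.73, 1.77 and 1.81 in WT31_P5IV replicates 1 to 5. Nectin1 made up 2.33% to 3.47% of the nectin TPM in WT31 and 0% to 0.366% in WT31_P5IV.

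The 5 nectin-like genes summed to 147.6 ± 8.48 TPM in WT31 and 175.5 ± 10.5 TPM in WT31_P5IV (SD, n = 5), and these sums overlapped. Cadm1 made up 75.8% ± 0.575 and 73% ± 0.625 of them, Pvr 15.3% ± 0.539 and 14.3% ± 0.583, and Cadm4 8.99% ± 0.796 and 12.7% ± 0.534 (SD, n = 5). The ratio of Cadm1 to Cadm4 TPM was 7.58 to 9.56 in WT31 and 5.48 to 6.24 in WT31_P5IV, without overlap. The nectin-like sum stood at 5.55 ± 0.223 times the nectin sum in WT31 and at 5.48 ± 0.316 times in WT31_P5IV (SD, n = 5), values that overlapped. Afdn per nectin TPM was 1.63 ± 0.0894 and 1.44 ± 0.165 (SD, n = 5), which also overlapped.

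**Figure D2:**
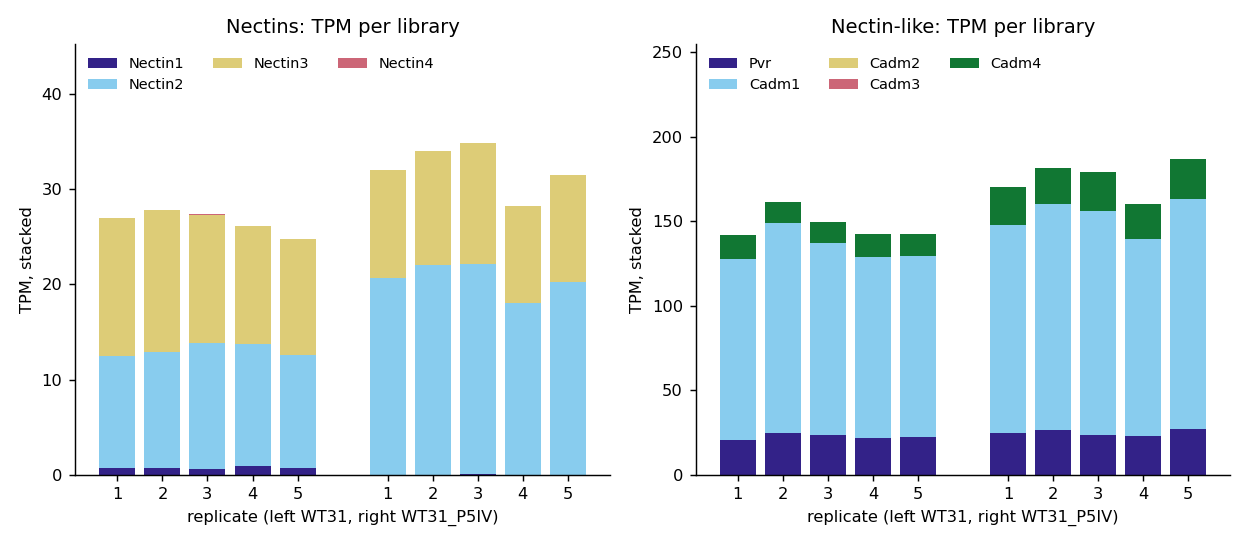
TPM of the 4 nectins (left) and the 5 nectin-like genes (right), stacked for each of the 5 WT31 and 5 WT31_P5IV libraries. In WT31 the Nectin2 and Nectin3 segments are of similar height, in WT31_P5IV the Nectin2 segment makes up 63.2% to 64.9% of the nectin bar, and Cadm1 is the largest nectin-like segment in all 10 libraries.

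The deposited counts and TPM together give the mean length of the transcripts to which a gene's counts were assigned. This length was within 20 nt of the annotated one for all 673 to 689 single-transcript genes checked in each library. For Nectin1 it was 5653 nt in 4 of 5 WT31 libraries and 5451 nt in WT31 replicate 3, and the longest annotated Nectin1 transcript has 5653 nt and is the principal coding one. Of the 2 counts in WT31_P5IV, that of replicate 5 was on the long transcript, and that of replicate 3 gave a shorter length of 613 nt. The other annotated Nectin1 transcript has 384 nt, so the transcript behind the replicate 3 count is not identified. So 1 of the 5 WT31_P5IV libraries held a count of the long Nectin1 transcript.

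For the other members the mean length overlapped between the groups. Nectin2 had 2185 ± 68.7 nt in WT31 and 2197 ± 28.5 nt in WT31_P5IV, Cadm4 2148 ± 28.8 and 2118 ± 42.3 nt, and Cadm1 3849 ± 65.1 and 3893 ± 93.9 nt (SD, n = 5). Nectin3 had 2864 ± 64.1 and 2757 ± 53 nt, and Pvr 2472 ± 72.1 and 2379 ± 109.5 nt (SD, n = 5). Afdn had the widest gap, with 4542, 4910, 4803, 4565 and 4381 nt in WT31 replicates 1 to 5 and 3858, 4344, 4472, 4025 and 3943 nt in WT31_P5IV replicates 1 to 5. The groups of Afdn overlapped because WT31 replicate 5 was below WT31_P5IV replicate 3.

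**Figure D3:**
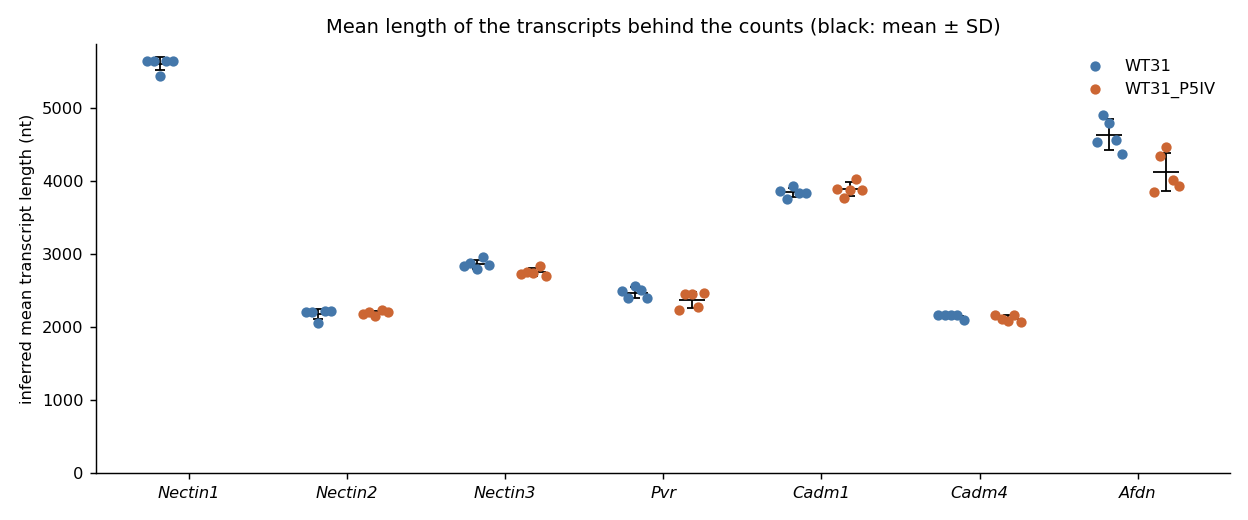
Inferred mean transcript length in nt for each member with at least 10 counts in a library; points are libraries and black marks are the mean ± SD. Nectin1 has WT31 points only, at 5451 to 5653 nt, and Afdn spans 4381 to 4910 nt in WT31 and 3858 to 4472 nt in WT31_P5IV.

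Nectin2 and Cadm4, with similar fold changes, lie on chromosome 7, and their promoters are shown because they moved together. RefSeq promoters on GRCm38.p6, from 250 bases before to 50 after the start, were found for 7 of the 10 members. Capitals mark the letters GGGCGG on either strand, the core of the GC box that Sp family factors bind.
Nectin2 promoter (chr7:19749524-19749823, minus strand): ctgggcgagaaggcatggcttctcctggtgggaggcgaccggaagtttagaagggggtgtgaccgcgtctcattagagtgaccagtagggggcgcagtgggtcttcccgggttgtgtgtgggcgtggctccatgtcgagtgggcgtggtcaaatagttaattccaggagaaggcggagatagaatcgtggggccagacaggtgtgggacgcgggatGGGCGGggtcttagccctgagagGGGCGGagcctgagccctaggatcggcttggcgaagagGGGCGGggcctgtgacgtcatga
Cadm4 promoter (chr7:24481773-24482072, plus strand): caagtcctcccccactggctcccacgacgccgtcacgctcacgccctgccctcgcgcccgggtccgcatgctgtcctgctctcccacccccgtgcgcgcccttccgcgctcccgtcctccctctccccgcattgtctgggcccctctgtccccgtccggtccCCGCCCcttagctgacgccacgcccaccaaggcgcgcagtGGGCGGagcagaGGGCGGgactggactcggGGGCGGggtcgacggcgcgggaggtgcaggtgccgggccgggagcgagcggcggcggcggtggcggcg
These letters occur 3 times in the Nectin2 and 4 times in the Cadm4 window, and they are found at least once in 35.7% of all 32851 promoter windows. They also occur 5 times in the window of Nectin3 and 4 times in that of Afdn, both of which overlapped between the groups. The windows of Nectin2 and Cadm4 hold 20 and 40 CpG and those of Nectin3 and Afdn 40 and 62, against a median of 7 over all windows. Neither window holds the letters CACGTG or CATGTG, found in 7.15% and 14.2% of all windows and read by Mitf and other basic helix-loop-helix factors, or TGANTCA, found in 7.81% and read by AP-1 factors. Such matches describe the letters only.

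Partners of the family were taken from lists of known interactors. These lists, too, were chosen with earlier results of these data known. Their counts, shares and adjusted p-values are therefore given as a description. Of 62 tested partner genes, 43 passed the threshold, 69.4% beside the 68.5% of all genes, with 20 higher and 23 lower. This split was 12 higher and 28 lower on log2(TPM + 0.1), and 14 and 25 without scaling beyond library totals. Their median log2 fold change was −0.04. Of them 4 passed the fold filter, Plekha7, Epb41l3, Lin7a and Jam2.

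Junction partners of nectins and afadin, which include catenins, actin-binding proteins and Rap1 regulators, had 29 tested genes, of which 7 rose and 13 fell, 69% in all beside the 68.5% of all genes, with a median log2 fold change of −0.12. On the scale of log2(TPM + 0.1), where the median of all genes shifted by −0.17, 2 were higher and 17 lower. Plekha7, which joins the catenin complex to microtubules at the adherens junction, rose from 6 ± 0.162 to 22 ± 0.517 CPM (SD, n = 5; log2 fold change 1.88, SE 0.05, edgeR adjusted p = 3.22e-13), with no overlap. Prkci, an atypical protein kinase C of the polarity complex, fell from 138.1 ± 7.9 to 91.1 ± 2.07 CPM (SD, n = 5; log2 fold change −0.60, SE 0.04, edgeR adjusted p = 1.03e-08). Rap1a, a small GTPase that binds afadin, fell from 122.2 ± 4.24 to 85 ± 3.14 CPM (SD, n = 5; log2 fold change −0.52, SE 0.04, edgeR adjusted p = 1.7e-08). Cdh1, which encodes E-cadherin, was not tested and had 8 to 11 counts in WT31 and 3 to 7.51 in WT31_P5IV, and its CPM overlapped between the groups, with 0.313 to 0.416 and 0.121 to 0.343.

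The cytoplasmic partners of the Cadm proteins had 12 tested genes, of which 9 fell and 0 rose, with a median log2 fold change of −0.42. These 9 are 75% of the list, beside 33.9% of all genes that were lower. No gene of this list was higher at an unadjusted p under 0.05 in edgeR, or at an adjusted p under 0.05 in DESeq2, in limma voom or on the TPM scale. The 3 that did not pass, Epb41l1, Mpp3 and Cask, had log2 fold changes of −0.23, 0.07 and 0.04. Epb41l3, a band 4.1 protein that binds the tail of Cadm1, fell from 9.3 ± 0.716 to 0.691 ± 0.0841 CPM (SD, n = 5; log2 fold change −3.74, SE 0.11, edgeR adjusted p = 1.03e-12). Lin7a, a small PDZ scaffold protein, fell from 11.9 ± 1.85 to 1.56 ± 0.255 CPM (SD, n = 5; log2 fold change −2.92, SE 0.14, edgeR adjusted p = 1.4e-10). Mpp6, a membrane-associated guanylate kinase, fell from 107.9 ± 3.56 to 56.7 ± 2.31 CPM (SD, n = 5; log2 fold change −0.93, SE 0.04, edgeR adjusted p = 5.92e-11). The groups did not overlap for these 3 genes. Cadm1 and Cadm4 were higher in the same WT31_P5IV libraries.

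Receptors known to act beside nectins or nectin-like proteins had 10 tested genes, of which 7 rose and 0 fell in edgeR, with a median log2 fold change of 0.55. These 7 are 70% of the list, beside 34.6% of all genes that were higher. The number lower was also 0 at an unadjusted p under 0.05 in edgeR, and at an adjusted p under 0.05 in DESeq2, in limma voom and on the TPM scale. Erbb2 and Erbb3, receptor tyrosine kinases that signal as a pair, rose from 24.6 ± 0.664 to 47.3 ± 2.88 CPM and from 156.4 ± 6.07 to 295.3 ± 15 CPM (SD, n = 5; log2 fold changes 0.94 and 0.92, SE 0.05 and 0.04, edgeR adjusted p = 2.89e-10 and 1.38e-10). Itgb4, the integrin chain of hemidesmosomes, rose from 1.61 ± 0.186 to 2.97 ± 0.439 CPM (SD, n = 5; log2 fold change 0.88, SE 0.13, edgeR adjusted p = 3.52e-05). The proteases that shed nectins and the gamma-secretase complex that cleaves what remains had 8 tested genes, of which 5 rose and 0 fell in edgeR, with a median of 0.33. These 5 are 62.5% of the list, beside the same 34.6%. The number lower was 0 at an unadjusted p under 0.05 in edgeR, and, at an adjusted p under 0.05, 0 in DESeq2 and limma voom and 1 on the TPM scale. Ncstn and Psen2, subunits of gamma-secretase, had the largest log2 fold changes among them, 0.77 and 0.52 (edgeR adjusted p = 4.37e-10 and 3.44e-07).

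Among other immunoglobulin-type junction proteins 3 of 8 were tested. Jam2, a junctional adhesion molecule, fell from 101.1 ± 2.92 to 43.2 ± 2.03 CPM (SD, n = 5; log2 fold change −1.23, SE 0.04, edgeR adjusted p = 3.54e-12). Its relative Jam3 had a log2 fold change of 0.13 (edgeR adjusted p = 0.0297) with overlapping groups. Jam3 missed the threshold in 12 of 19 alternatives, with log2 fold changes of −0.05 to 0.13, among them DESeq2, the TPM scale and each fit that left out WT31 replicate 1, 2, 3 or 4 or WT31_P5IV replicate 1 or 2. The lymphocyte receptors were not tested. Cd96 had 0 counts in every library, Pvrig at most 1, Cd226 at most 2, Crtam at most 3 and Tigit at most 4.97.

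**Figure D4:**
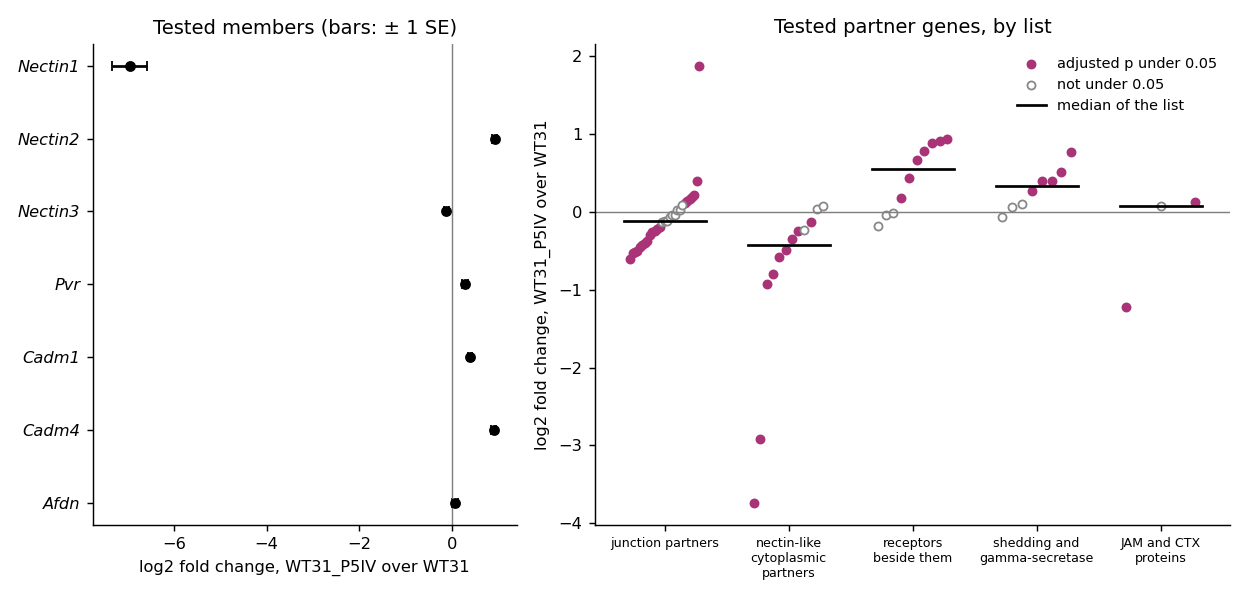
Log2 fold changes of WT31_P5IV over WT31 for the 7 tested members (left, bars ± 1 SE) and for the 62 tested partner genes by list (right; filled points have an adjusted p under 0.05 and black lines are medians). Nectin1 stands at −6.96, the other members lie between −0.12 and 0.92, and the tested cytoplasmic partners of the nectin-like proteins have 9 filled points below 0 and none above it.

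The tested genes nearest to the members were compared to see whether a member's difference was shared along the chromosome. The 5 nearest tested genes on each side were taken by transcription start, other members left out, which gave 62 genes. Of these 43 passed the threshold, 69.4% beside 68.5% of all tested genes, and 5 passed the fold filter, 8.06% beside 9.1%. There were 19 higher and 24 lower, and 10 higher and 26 lower on log2(TPM + 0.1). Around Nectin1, 4 genes rose and 4 fell, against 1 and 4 on log2(TPM + 0.1) and 2 and 5 without scaling beyond library totals. The nearest tested gene before it, Oaf at 504.1 kb, fell from 2.85 ± 0.627 to 0.0665 ± 0.0636 CPM (SD, n = 5; log2 fold change −5.32, SE 0.38, edgeR adjusted p = 1.04e-08). Its WT31_P5IV mean is under the floor of 3 counts, 0.12 to 0.129 CPM there. Like Nectin1, Oaf thus passed the filter through WT31, and the size of its fitted fold change depends on the prior count. The predicted gene Gm47327, 366.9 kb after Nectin1, rose from 0.292 ± 0.378 to 1.36 ± 0.332 CPM (SD, n = 5; log2 fold change 2.21, SE 0.52, edgeR adjusted p = 0.00157). Its level was low, and in WT31 its SD exceeded its mean. In edgeR the 4 genes that fell all lie before Nectin1 and the 4 that rose all lie after it. This arrangement was seen only after the values were known and was not tested. The genes are not all separate loci either, since Gm5831 lies within Arhgef12.

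Nectin2 and Pvr share neighbours on chromosome 7. Of the 10 genes around Nectin2, 6 rose and 0 fell, and of those around Pvr 5 rose and 0 fell, in edgeR, beside 34.6% of all genes that were higher. These are largely the same genes, since 8 of the 10 are shared, 4 of them past the threshold. The number lower was 0 in both at an unadjusted p under 0.05 in edgeR, and, at an adjusted p under 0.05, 0 in DESeq2 and limma voom and 1 in both on the TPM scale. Apoe, which encodes the lipid carrier apolipoprotein E and starts 51.3 kb from Nectin2, rose from 16 ± 1.66 to 473.7 ± 27.7 CPM (SD, n = 5; log2 fold change 4.89, SE 0.07, edgeR adjusted p = 3.73e-16). The 6 genes that rose around Nectin2 start within 146 kb of it, whereas Zfp180, the farthest of the 10, starts 4331.4 kb away. The 10 neighbours of Nectin3 on chromosome 16 held 0 higher and 8 lower genes, beside 33.9% of all genes that were lower, with a median log2 fold change of −0.53, whereas Nectin3 itself was at −0.12. The number higher was 0 at an unadjusted p under 0.05 in edgeR, and at an adjusted p under 0.05 in DESeq2, in limma voom and on the TPM scale. Around Cadm1, 1 gene rose and 6 fell, with Nxpe4 lowest at −1.59 (SE 0.13, edgeR adjusted p = 4.05e-08), while Cadm1 was at 0.39. Around Cadm4, 4 rose and 2 fell, and its log2 fold change of 0.90 was above that of each of its 10 neighbours, which reached 0.48 at most. Around Afdn, 3 rose and 4 fell, with Acat3 highest at 1.20 (SE 0.29, edgeR adjusted p = 0.00181). On log2(TPM + 0.1) the numbers higher and lower were 0 and 7 around Cadm1, 3 and 3 around Cadm4 and 1 and 4 around Afdn. Those around Cadm1 were 2 and 4 with upper-quartile scaling, and 0 and 5 without WT31_P5IV replicate 1 or without WT31_P5IV replicate 2.

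**Figure D5:**
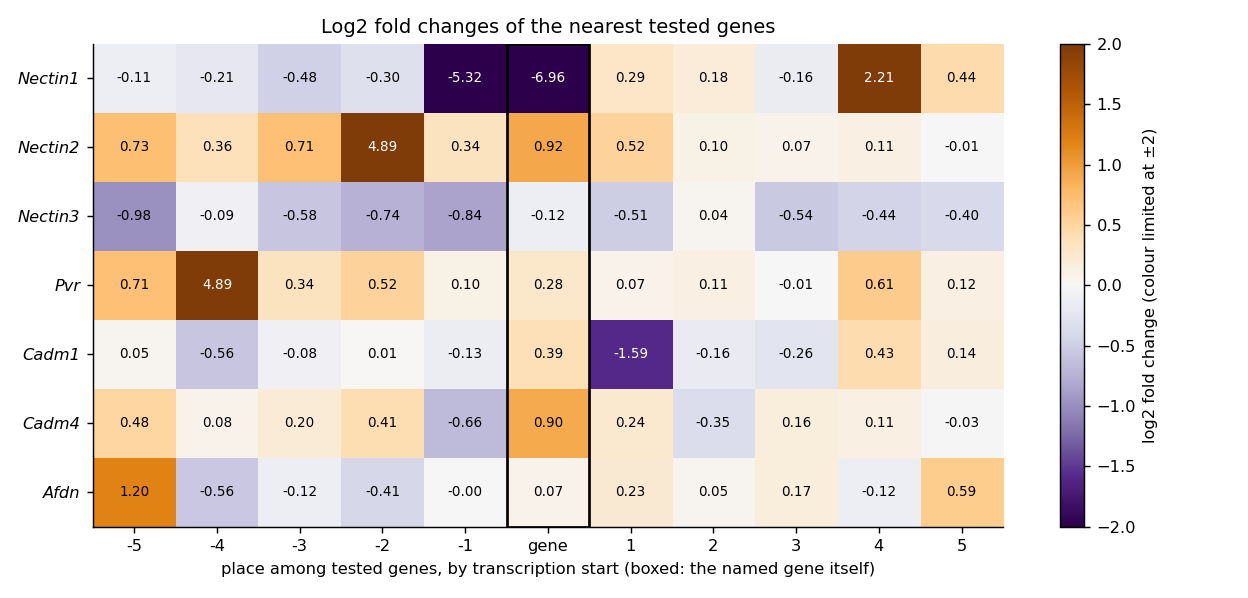
Log2 fold changes of the 5 nearest tested genes on each side of each tested member, with the member itself boxed in the middle; numbers are the values and the colour is limited at ±2. The row of Nectin3 is negative at 9 of 10 neighbours, and that of Nectin2 is positive at all but 1.

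The genes whose pattern over the 10 libraries was most like that of Nectin1 were Pcbp3, Aldoc, Rab38, Tagln2 and Emilin1, with Pearson r of 0.997 to 0.998 on log2 CPM. The libraries form 2 groups, so a gene that is lower in WT31_P5IV can score high for that alone, and 18.8% of the other tested genes reached an r of 0.9. Pcbp3, which encodes an RNA-binding protein, had 97 to 153 counts in WT31 libraries and 0 to 4 in WT31_P5IV libraries, where Nectin1 had at most 1. Aldoc, a glycolytic aldolase, fell only from 21.9 ± 1.02 to 12.1 ± 0.414 CPM (SD, n = 5).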

How the data were processed

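RNA-seq libraries of WT31 (n = 5) and WT31_P5IV (n = 5) were compared. The authors trimmed reads with Trim Galore 0.6.4 and quantified them with kallisto (the sources differ on its version) against GRCm38.p6, and they deposited estimated counts and TPM per gene; the annotation release and the strand setting are not given in the sources used here. Of 55385 identifiers, 55144 were matched to GENCODE M21 without their version number. The gene models of Nectin1, Cadm1 and Afdn have a later version in the files than in M21.

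Estimated counts were rounded, filtered with filterByExpr, scaled by TMM and compared by the quasi-likelihood test of edgeR 4.0.16 (glmQLFit, then glmQLFTest; R 4.3.3). Adjusted p-values (Benjamini-Hochberg) cover all 13620 tested genes, with a threshold of 0.05. The fold filter added a log2 fold change of 1 or more in size. A standard error is the unshrunken log2 fold change over the root of F. TPM was used as deposited by the authors.

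The members and the lists were chosen with earlier results of these data known. Named were all members, in each partner list the 3 genes with the largest log2 fold change among those past the threshold and all lymphocyte receptors, neighbours past the fold filter, and the 5 genes most like Nectin1. A gene that this rule names is not reported here. Other genes named to account for a list were chosen after their values were seen. Pals2 is a synonym of Mpp6 and was counted once.

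Alternatives were DESeq2 1.42.0, limma 3.58.1 with voom, upper-quartile scaling, 2 other filters (any gene with 1 count, and a minimum of 10 counts throughout), a replicate block, limma on log2(TPM + 0.1) and log2(TPM + 1), and each library left out. No scaling beyond library totals was added after seeing the data. The edgeR procedure was tested on simulated data. Counts behind intervals and floors are reads without molecular identifiers, so these cover counting error only. No pair of replicate libraries agreed within sampling noise, with a mean chi-square per gene of 2.44 to 24.3.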

Additional observations from a re-analysis of the deposited data

Results flagged for a closer look

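In 7 of 90 groups of 5 values, 1 library stood apart from the other 4 by Dixon's ratio, the gap to the nearest library over the range of the group, with a limit of 0.71. The groups were the CPM and TPM of the tested members (for Nectin1 only in WT31), the family sums, ratios and shares, the inferred transcript lengths, and the CPM of the other genes given with a mean and SD; chance gives about 1 in 20 such groups.

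Among the members, 3 of the 7 values were transcript lengths, all in WT31. In replicate 3 the length was 5451 nt for Nectin1, against 5653 nt in the others, and 2063 nt for Nectin2, against 2210 to 2221 nt. In replicate 5 that of Cadm4 was 2097 nt, against 2161 nt in the others. The Pvr share of the nectin-like TPM was 13.3% in WT31_P5IV replicate 3, against 14.4% to 14.7%.

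Of the partner genes, Epb41l3 was highest in WT31 replicate 5, at 10.6 CPM against 8.81 to 9.13 CPM, and lowest in WT31_P5IV replicate 1, at 0.546 CPM against 0.701 to 0.763 CPM. Jam2 was highest in WT31_P5IV replicate 2, at 46.7 CPM against 41.9 to 43.1 CPM. Both genes passed the threshold in each of the 19 alternatives, those without these libraries included.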

How the results depend on the processing

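Of the 10 members, 5 passed the threshold, and this number was 4 to 6 under the alternatives. The number past the fold filter fell from 1 to 0 with a minimum of 10 counts throughout, where Nectin1 is not tested by construction, and on log2(TPM + 1), where its log2 fold change was −0.76. No member's log2 fold change changed its sign among those past the threshold, and 19 of 132 recomputed values moved by more than the spread between replicates, 10 of them on the TPM scale. On log2(TPM + 0.1) and log2(TPM + 1) the median of all genes shifted by −0.17 and −0.16, and 32.9% and 32.8% of the genes past the threshold were higher, against 50.5% with TMM. Without scaling beyond library totals this share was 42.3%. On the scale of CPM per kb of transcript, the WT31_P5IV to WT31 ratio was 1.34 in place of 1.21 for the summed nectins and 1.34 in place of 1.19 for the summed nectin-like genes. The number of partner genes past the threshold ran from 39 to 44 and that of neighbours from 36 to 44. With each library left out, the summed nectin TPM was 26.3 to 27.1 in WT31 and 31.4 to 33 in WT31_P5IV, and the nectin-like sum 144.1 to 149 and 172.7 to 179.3.

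The groups share replicate numbers in the titles, which were used here, although file labels in the WT31 descriptions number those libraries 1, 2, 4, 5 and 6. Correlations of same-numbered libraries after removal of group means were −0.096 to 0.178, and 1 of 5 was over 0.1. Because titles and file labels number the WT31 libraries differently, these values cannot show whether libraries were processed in pairs. The main fit used no pairing. With the replicate block, 5 members, 44 partner genes and 43 neighbours passed the threshold, and 1 member and 4 partner genes the fold filter.

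Depth limits the low members. A library floor of 3 counts is 0.113 to 0.129 CPM, and Nectin4, Cadm2 and Cadm3 were at or under it throughout, so a difference in them was not detectable.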
